A study of Homo sapiens with 10 samples.

Results

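The 9 genes described here belong to the p53 pathway: MDM2, MDM4 and PPM1D, whose products restrain p53, and the p53 targets CDKN1A, ZMAT3, SESN1, FDXR, RPS27L and TNFRSF10B. They were listed by symbol and matched through GENCODE to 9 of the 63677 Ensembl gene identifiers counted in each library. All 9 passed the filter on low counts and are among the 16756 tested genes, so none of the 9 was lost to low counts.

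RNA was sequenced from RS4;11, an established human cell line of B-cell precursor acute lymphoblastic leukaemia. The 5 VENins lines were grown in rising concentrations of venetoclax, an inhibitor of BCL-2, until they were insensitive to it, and by the study's methods they stayed under the drug, which was washed off before analysis. The 5 VENsens lines received the solvent, DMSO, over the same course, were held without venetoclax and stayed sensitive. All 10 lines came from the same parental cell line, and each was sequenced as 1 library. The comparison therefore sets lines that had adapted to venetoclax and were kept under it until it was washed off against lines that met only its solvent, and it does not separate adaptation from exposure to the drug. Neither group carries an engineered genetic change by the labels, and the lines sample the repeats of 1 selection in 1 cell line, not patients.

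p53 is a transcription factor that accumulates after DNA damage and other stress and switches on genes for cell cycle arrest, metabolic control and cell death. MDM2 and MDM4 hold it in check by binding it, MDM2 also by marking it for degradation, and because MDM2 is itself a target the circuit forms a negative feedback loop. In B-cell precursor leukaemia the gene for p53 is seldom mutated at diagnosis and more often at relapse, and several of its targets act on the mitochondrial death pathway that venetoclax engages.

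Reads counted on genes ranged from 20631907 to 28323643 in the VENsens libraries and from 21145316 to 25394653 in the VENins libraries. The medians were 24010870 and 24611645. Between 52.7% and 54.2% of the reads of a library were counted on genes. Levels are given as CPM, counts per 1000000 counts of the library, after TMM scaling, which adjusts library totals for differences in composition. Each gene was tested with edgeR's quasi-likelihood test in a model of the line number (1 to 5) and the condition, with p-values adjusted over all 16756 tested genes, and a gene is called where the adjusted p is under 0.05.

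The labelled cell type was checked against marker genes. All 14 markers of a pro-B leukaemia with a KMT2A fusion were among the tested genes. Their summed level lay between 4115 and 4235 CPM in the VENsens lines and between 4019.8 and 4481 CPM in the VENins lines, with IGLL1 the most abundant at a mean of 723 CPM. In edgeR's quasi-likelihood test 1 of the 14 passed an adjusted p of 0.05, the B-lineage factor PAX5, which fell by 0.31 on the log2 scale (adjusted p = 0.0272) and was lower in 5 of 5 VENins lines than in any VENsens line. The adjusted p of PAX5 missed the threshold without the lines numbered 2 (0.242), 3 (0.0597) or 5 (0.0647). Summed T cell markers (8 genes) stayed between 0.832 and 1.61 CPM, with CD3E the most abundant at 0.859 CPM and TRBC2 and CD8A at 0 in every library. Summed erythroid markers (7 genes) stayed between 0.0409 and 0.347 CPM, with ALAS2 the most abundant at 0.138 CPM and HBA1 and HBA2 at 0. The 8 myeloid markers summed to 12.5 to 18.2 CPM, mostly through CSF1R at 9.51 CPM, with S100A8 and S100A9 at 0. The 8 stromal and epithelial markers summed to 13.2 to 19.1 CPM, mostly through PDGFRB at 13.9 CPM, with EPCAM and KRT18 at 0.

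One VENins library, line 4, stood apart from its group. On the first principal component of the tested genes, which held 23.5% of the variance, the VENsens lines scored -6.5, -17.9, -6.1, -11 and -12.5, and VENins lines 1, 2, 3 and 5 scored 15, 21.1, 7.1 and 18.6. VENins line 4 scored -7.9 and so lay among the VENsens lines. On the second component, with 16.7% of the variance, VENins line 5 was farthest from the rest at -22.6. Results are therefore given with VENins line 4 and, where a call or a direction changes, without it. Fits without a number leave out both lines that bear it. Fits without a single library do not use the line number, and they were added after the position of VENins line 4 had been seen.

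**Figure D1:**
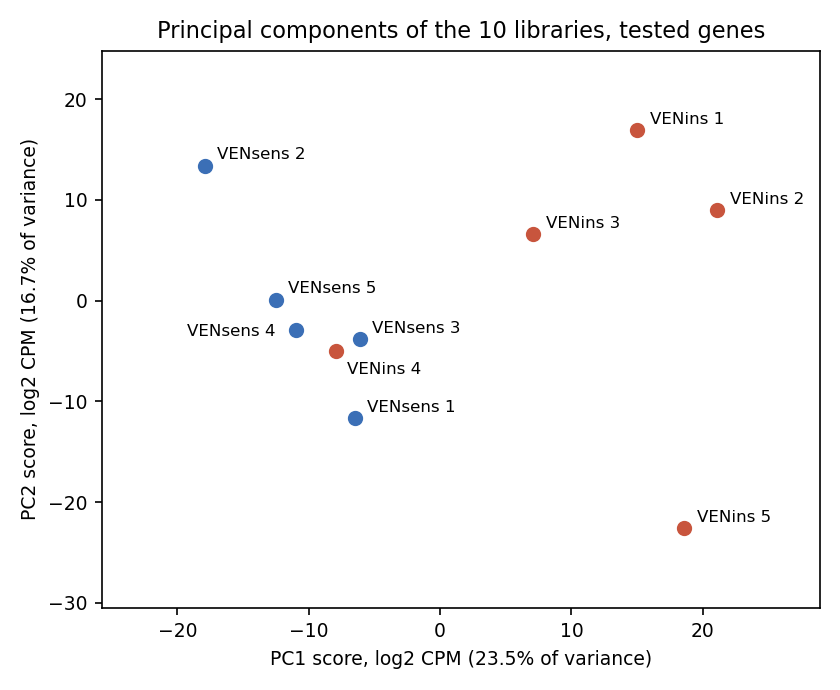
Scores of the 10 libraries on the first (horizontal) and second (vertical) principal component of log2 CPM of the tested genes, 1 point per line, VENsens blue and VENins red. VENins line 4 lies among the VENsens lines on the first component, at -7.9.

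Libraries also differed in how level related to transcript length. The change in log2 CPM per doubling of exon length, over 16312 genes, was 0.007, 0.036, -0.002, 0.012 and 0.01 in VENsens lines 1 to 5. It was -0.002, -0.022, -0.016, -0.007 and -0.016 in VENins lines 1 to 5, so the groups met only at -0.002. With that trend removed from each library, 0 of the 9 genes passed the adjusted p in edgeR's quasi-likelihood test and 4 had an unadjusted p under 0.05, the same counts as without the removal, beside 0.282% and 14.7% of all genes in that fit. After the removal the log2 fold change was 0.09 for MDM2, 0.19 for MDM4 and -0.10 for ZMAT3.

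Among the regulators, MDM2 encodes the ubiquitin ligase that marks p53 for degradation. MDM2 (ENSG00000135679) stood at 109, 123, 123, 120.1 and 123 CPM in VENsens lines 1 to 5 and at 128, 126, 121, 133 and 99.6 CPM in VENins lines 1 to 5. VENins lines 1, 2 and 4 were above every VENsens line, VENins line 5 was below every one, and the groups overlapped. The VENsens mean of MDM2 was 119.5 ± 6.24 CPM and the VENins mean 122 ± 13 CPM (SD, n = 5 in each group). For MDM2, the log2 fold change of VENins over VENsens was 0.02 (SE 0.07), and MDM2 did not pass edgeR's quasi-likelihood test (adjusted p = 0.925). Its sign turned without the lines numbered 1 (-0.04) or 4 (-0.01), without VENsens line 1 alone (-0.0077) and without VENins line 4 alone (-0.0087). In bulk RNA of this kind, fewer cells expressing a gene and less RNA per cell cannot be told apart. Exons of MDM2 overlap those of the carboxypeptidase M gene on the other strand, which reached at most 3.47 CPM. The library kit does not mark the strand, and the strand setting of the counting is not given in the sources used here, so reads in that overlap are uncertain.

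MDM2 has a p53-responsive start inside its first intron, and its upstream sequence is shown because it holds the closest match to the p53 motif among the MDM2 windows outside exons. Sequences are from RefSeq starts on GRCh38.p14, written 5′ to 3′ on the strand of the gene, and capitals mark a pair of neighbouring 10-letter stretches scored against the p53 half-site consensus, which reads the same on both strands. The MDM2 stretch is chr12:68808767-68809001 on the + strand, all 235 bases of it intronic, and a further 15 bases, which are exonic, separate it from the annotated start. The pair, 20 letters with 2 mismatches, lies 94 to 75 bases before that start.
MDM2: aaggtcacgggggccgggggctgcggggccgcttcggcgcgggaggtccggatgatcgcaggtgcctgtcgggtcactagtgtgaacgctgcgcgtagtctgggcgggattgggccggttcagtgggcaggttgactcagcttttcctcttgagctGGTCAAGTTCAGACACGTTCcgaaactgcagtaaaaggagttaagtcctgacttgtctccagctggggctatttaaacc
A match is a description of letters, not a site or a cause. Counts per gene add the transcripts of all starts, so the MDM2 values do not separate this start from the others.

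MDM4 encodes a relative of MDM2 that binds p53 and blocks its activity as a transcription factor. MDM4 (ENSG00000198625) was measured at 145, 143, 153, 136 and 133 CPM in VENsens lines 1 to 5 and at 148, 174, 155, 148 and 149 CPM in VENins lines 1 to 5. VENins line 2 was the highest of the 10, VENins lines 2 and 3 were above every VENsens line, and the other 3 VENins lines lay below VENsens line 3. The VENsens mean of MDM4 was 142 ± 7.74 CPM and the VENins mean 155 ± 11.3 CPM (SD, n = 5 in each group). For MDM4, the log2 fold change was 0.13 (SE 0.06), with an unadjusted p of 0.0388 and an adjusted p of 0.28 in edgeR's quasi-likelihood test. Over 24 alternative settings it ranged from 0.08 to 0.19, with adjusted p from 0.155 to 0.724.

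PPM1D encodes the phosphatase WIP1, which removes activating phosphates from p53 and from kinases of the DNA damage response and is itself induced by p53. PPM1D (ENSG00000170836) stood at 34.9, 40.3, 35.5, 34.8 and 40.4 CPM in VENsens lines 1 to 5 and at 38.6, 36.1, 36.1, 38.7 and 36.2 CPM in VENins lines 1 to 5. The VENins values all lay within the VENsens range, with VENsens lines 2 and 5 the highest of the 10. The VENsens mean of PPM1D was 37.2 ± 2.88 CPM and the VENins mean 37.1 ± 1.39 CPM (SD, n = 5 in each group). With a log2 fold change of 0.00053 (SE 0.07), PPM1D did not pass edgeR's quasi-likelihood test (adjusted p = 0.999). The sign was negative without the lines numbered 1 (-0.03), 3 (-0.0062) or 4 (-0.04), without VENsens line 1, 3 or 4 alone (-0.02 each), and without VENins line 1 (-0.01) or VENins line 4 (-0.02) alone.

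**Figure D2:**
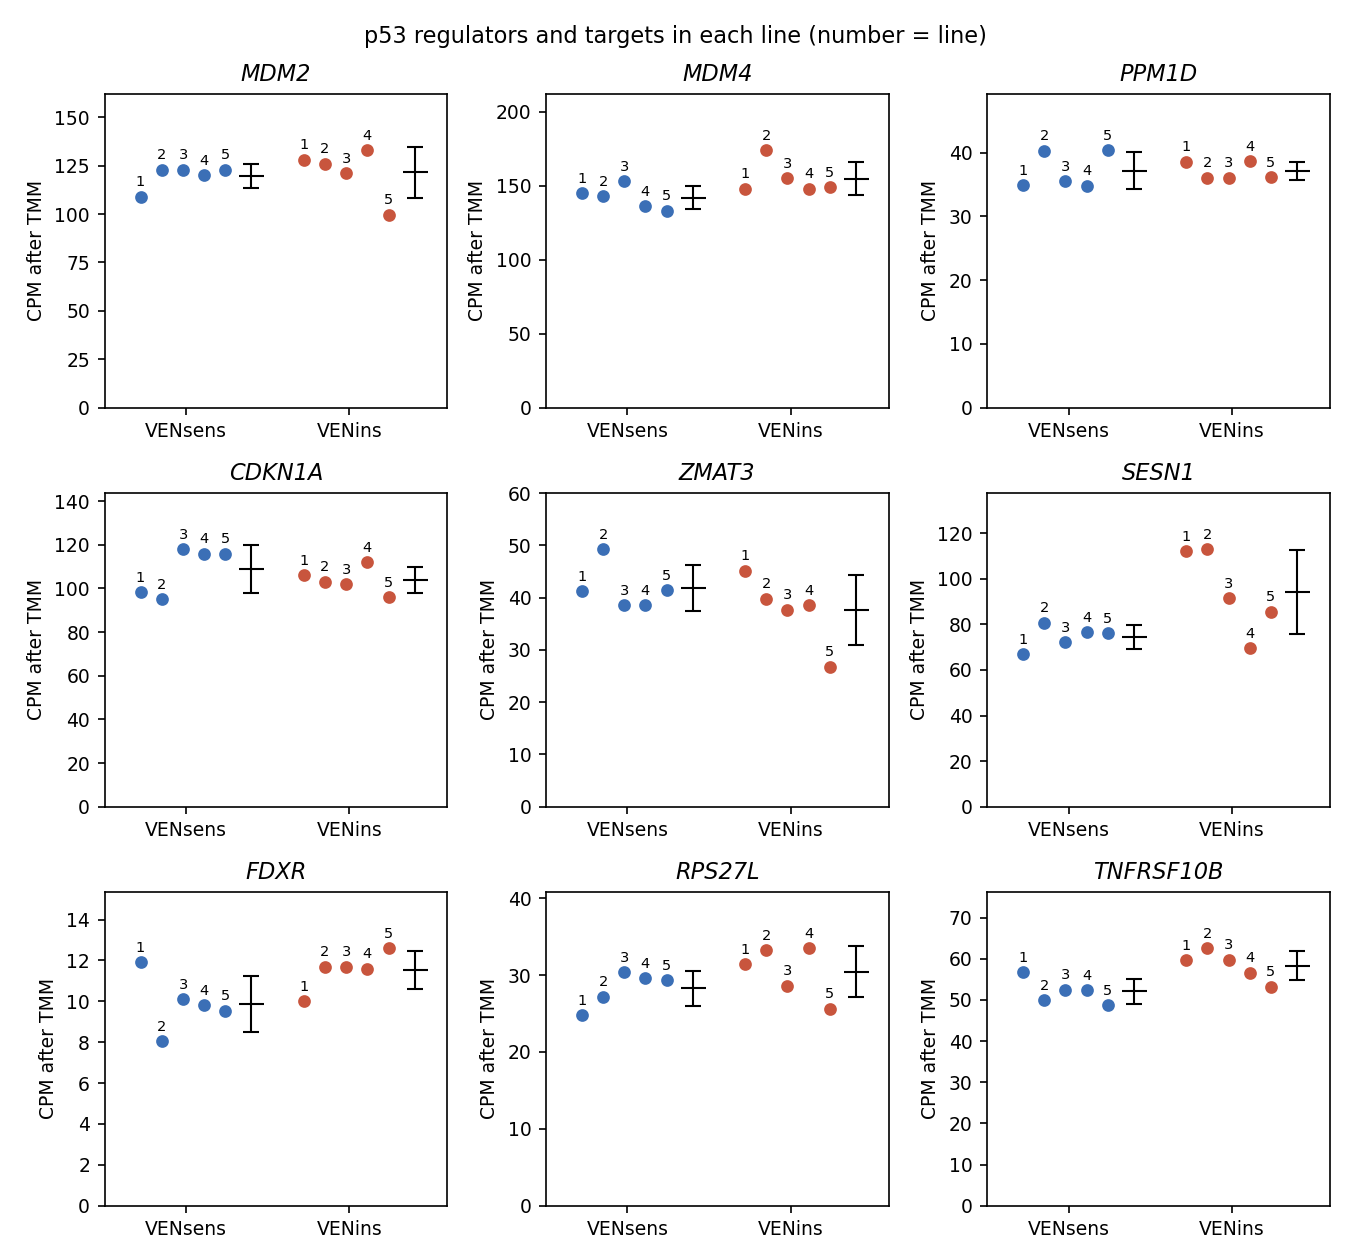
CPM after TMM (vertical axis, from 0) of the 9 genes in the VENsens (blue) and VENins (red) lines, 1 numbered point per line, with the group mean and 1 SD (n = 5) as a black bar beside the points. The groups overlap for each gene; SESN1 in VENins lines 1 and 2 stands at 112 and 113 CPM, above a VENsens range of 66.9 to 80.7.

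Among the targets, CDKN1A encodes p21, the inhibitor of cyclin-dependent kinases through which p53 arrests the cell cycle. CDKN1A (ENSG00000124762) was measured at 98.4, 95.1, 118, 116 and 116 CPM in VENsens lines 1 to 5 and at 106, 103, 102, 112 and 96.0 CPM in VENins lines 1 to 5. VENsens lines 3, 4 and 5 were above every VENins line, VENsens line 2 was the lowest of the 10, and the VENins values lay inside the VENsens range. Mean CDKN1A in VENsens lines was 109 ± 10.9 CPM and the VENins mean 104 ± 5.70 CPM (SD, n = 5 in each group). Its log2 fold change was -0.06 (SE 0.06), which did not pass edgeR's quasi-likelihood test (adjusted p = 0.677). It stayed below 0 in all 24 alternatives, from -0.11 without the lines numbered 2 or VENsens line 2 alone to -0.01 without the lines numbered 5. The gene DINOL lies on the other strand over exons of CDKN1A and is not among the identifiers counted, so any reads of it would be counted with CDKN1A if strands were not separated.

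ZMAT3 encodes a zinc finger protein that binds RNA and acts in p53-dependent growth suppression. ZMAT3 (ENSG00000172667) stood at 41.3, 49.3, 38.6, 38.6 and 41.4 CPM in VENsens lines 1 to 5 and at 45.2, 39.8, 37.7, 38.6 and 26.8 CPM in VENins lines 1 to 5. VENins line 5 was the lowest by a wide margin and VENsens line 2 the highest, and the other lines overlapped. VENins lines 3, 4 and 5 were below every VENsens line, line 4 by less than the printed digits show. Mean ZMAT3 in VENsens lines was 41.8 ± 4.37 CPM and the VENins mean 37.6 ± 6.72 CPM (SD, n = 5 in each group). For ZMAT3, the log2 fold change of -0.16 (SE 0.09) did not pass edgeR's quasi-likelihood test (adjusted p = 0.387), and it ranged from -0.24 to -0.05 over the 24 alternatives.

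SESN1 encodes sestrin 1, which restrains the growth kinase complex mTORC1 when amino acids are scarce or p53 is active. SESN1 (ENSG00000080546) was measured at 66.9, 80.7, 72.1, 76.6 and 76.2 CPM in VENsens lines 1 to 5 and at 112, 113, 91.4, 69.5 and 85.6 CPM in VENins lines 1 to 5. VENins lines 1, 2, 3 and 5 were above every VENsens line, while VENins line 4, the library that lay among the VENsens lines on the first principal component, was below 4 of the 5 VENsens lines. Mean SESN1 in VENsens lines was 74.5 ± 5.24 CPM and the VENins mean 94.1 ± 18.2 CPM (SD, n = 5 in each group). For SESN1, the log2 fold change was 0.32 (SE 0.09), with an unadjusted p of 0.00365 and an adjusted p of 0.129 in edgeR's quasi-likelihood test. Without VENins line 4 and without the line number in the model, it was 0.43 and passed edgeR's quasi-likelihood test (adjusted p = 0.00487). Without both lines numbered 4 it was also 0.43 and passed edgeR's quasi-likelihood test (adjusted p = 0.00807). It also passed in DESeq2 without the line number, at 0.34 (adjusted p = 0.0351), and in edgeR with no filter on low counts, at 0.32 (adjusted p = 0.000252). Over the 24 alternatives the log2 fold change of SESN1 ranged from 0.21 to 0.43 and its adjusted p from 0.000252 to 0.564, with 4 of the 24 under 0.05. An antisense gene over its exons, AL390208.1, reached at most 0.368 CPM.

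The sequence before one of the annotated SESN1 starts is shown because SESN1 had the smallest p of the 9 genes and this window holds an exact match to the p53 half-site consensus. It is chr6:109008989-109009238 on the - strand of GRCh38.p14, 250 bases that are all intronic, from RefSeq and written 5′ to 3′ on the strand of the gene. Capitals mark a pair of neighbouring 10-letter stretches, 20 letters with 3 mismatches in all, that lies 49 to 30 bases before the start.
SESN1: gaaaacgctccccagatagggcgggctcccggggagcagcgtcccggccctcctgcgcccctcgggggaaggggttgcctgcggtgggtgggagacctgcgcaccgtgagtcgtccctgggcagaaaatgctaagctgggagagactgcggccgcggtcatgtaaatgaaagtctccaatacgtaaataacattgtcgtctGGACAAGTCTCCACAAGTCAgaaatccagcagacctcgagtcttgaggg
The first 10 capitals, GGACAAGTCT at 49 to 40 bases before the start, match the consensus exactly.

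RefSeq windows matched 8 of the 9 genes, all but TNFRSF10B, with 15 windows of 250 bases before a start. An exact half-site lay in 3 of these 15 windows, 1 of SESN1, 1 of FDXR (GGGCTTGCCC, 11 to 2 bases before the start) and that of RPS27L (AGACAAGCCC, 59 to 50 bases before the start). Among all 35116 windows of the table, 1957 (5.57%) held an exact half-site. A pair of half-sites up to 13 bases apart, each with the C and G of its centre kept, was present with 3 or fewer mismatches in 6 of the 15 windows, from 5 genes (MDM2, ZMAT3, SESN1, FDXR and RPS27L). Of the 6, 2 are overlapping MDM2 windows that hold the same pair, and those of ZMAT3 and RPS27L lie wholly in exons. In the FDXR window 37 bases are exonic, and its pair, 31 to 2 bases before the start, reaches into them. The share of all windows was 10.7% at 3 or fewer mismatches and 2.49% at 2 or fewer, and the limit of 3 was chosen after the matches had been seen. For windows without a match, the letters searched are not in these 250 bases, and nothing follows for p53 binding elsewhere.

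FDXR encodes ferredoxin reductase, a mitochondrial enzyme that passes electrons to ferredoxins for steroid and iron-sulfur cluster synthesis. FDXR (ENSG00000161513) had the lowest CPM of the 9 genes, with 11.9, 8.04, 10.1, 9.80 and 9.53 CPM in VENsens lines 1 to 5 and 10, 11.7, 11.7, 11.6 and 12.6 CPM in VENins lines 1 to 5. VENsens line 1 was above 4 of the 5 VENins lines and VENsens line 2 was the lowest of the 10. These values rest on 166 to 296 counts per library. Mean FDXR in VENsens lines was 9.86 ± 1.36 CPM and the VENins mean 11.5 ± 0.939 CPM (SD, n = 5 in each group). For FDXR, the log2 fold change was 0.23 (SE 0.11), with an unadjusted p of 0.0439 and an adjusted p of 0.294 in edgeR's quasi-likelihood test. Across the alternatives it lay between 0.16, without the lines numbered 2 or VENsens line 2 alone, and 0.35, without those numbered 1.

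RPS27L encodes a ribosomal protein-like factor that p53 induces and that binds MDM2. RPS27L (ENSG00000185088) stood at 24.8, 27.2, 30.4, 29.6 and 29.3 CPM in VENsens lines 1 to 5 and at 31.4, 33.2, 28.6, 33.5 and 25.6 CPM in VENins lines 1 to 5. VENins lines 1, 2 and 4 were above every VENsens line and VENins line 5 was below 4 of them. Mean RPS27L in VENsens lines was 28.3 ± 2.27 CPM and the VENins mean 30.4 ± 3.33 CPM (SD, n = 5 in each group). For RPS27L, the log2 fold change was 0.10 (SE 0.08) and did not pass edgeR's quasi-likelihood test (adjusted p = 0.571). The estimate was 0.04 without the lines numbered 1 and 0.18 without those numbered 5, its lowest and highest over the alternatives, 0.06 without VENsens line 1 alone, 0.16 without VENins line 5 alone, and 0.16 with the length trend removed. RPS27L resembles RPS27 in sequence, so reads shared by both are uncertain. RPS27 itself averaged 11.5 CPM over VENsens and 12.1 CPM over VENins lines. Between 24.6% and 26.2% of the reads of a library were left out for low mapping quality, which can hold reads that fit several places. The counted level and fold change of RPS27 may therefore miss part of its reads, which was not tested. Adding the counts of RPS27 to those of RPS27L does not recover such reads.

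TNFRSF10B encodes the death receptor DR5, which starts the extrinsic death pathway when it binds TRAIL. TNFRSF10B (ENSG00000120889) was measured at 56.8, 50, 52.5, 52.4 and 48.8 CPM in VENsens lines 1 to 5 and at 59.6, 62.6, 59.8, 56.6 and 53.2 CPM in VENins lines 1 to 5. VENins lines 1, 2 and 3 were above every VENsens line, and VENins lines 4 and 5 were below VENsens line 1 and above the other VENsens lines. Mean TNFRSF10B in VENsens lines was 52.1 ± 3.05 CPM and the VENins mean 58.4 ± 3.58 CPM (SD, n = 5 in each group). For TNFRSF10B, the log2 fold change was 0.16 (SE 0.06), with an unadjusted p of 0.0132 and an adjusted p of 0.188 in edgeR's quasi-likelihood test. Over the 24 alternatives the fold change stayed between 0.12 and 0.20 and the adjusted p between 0.0518 and 0.614. RHOBTB2, on the other strand over part of TNFRSF10B, reached 11.2 CPM, so reads in that overlap are uncertain.

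Of the 9 genes, 0 passed an adjusted p of 0.05 in edgeR's quasi-likelihood test, against 33 of all 16756 tested genes (0.197%). In DESeq2 with the line number in the model 0 of 9 passed, where 1.69% of its tested genes did, and without the line number 1 of 9 passed (SESN1), where 6.05% did. At an unadjusted p under 0.05 in edgeR, 4 of the 9 passed, MDM4, SESN1, FDXR and TNFRSF10B, beside 16.2% of all tested genes. All 4 were higher in VENins lines, where the share of all tested genes was 7.79%, and 0 were lower, where it was 8.38%. The count of 4 fell to 1 without the lines numbered 2 (1411 of 16770 tested genes) and to 2 without those numbered 4 (2511 of 16768). It was 5 without those numbered 1 (2820 of 16776). Without the line number it was 2 when VENsens line 4, VENsens line 5, VENins line 2 or VENins line 3 was left out, beside 2304 to 2589 of all tested genes. It was 5 without VENins line 1 (2900 of 16892). For 0 of the 9 did the groups not overlap, beside 781 of all tested genes (4.66%). The estimate was above a log2 fold change of 0 for 7 of the 9 (77.8%) and for 51.1% of all tested genes, with a median of 0.10 for the 9 and 0.0035 for all tested genes. The p-values measure only the spread between these lines, and a p above the threshold does not show that a gene did not differ.

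The number of genes called among all tested genes depended on single libraries. Without the lines numbered 1, 2, 3, 4 and 5 in turn, 57, 6, 17, 331 and 9 genes were called in edgeR's quasi-likelihood test in place of 33. Without the line number in the model 149 genes (0.889%) were called, 0 of the 9 among them, and with no filter on low counts 2.02% of tested genes and 1 of the 9 (SESN1). With 1 library left out and no line number in the model, the count was 45, 26, 178, 18 and 21 without VENsens lines 1 to 5 and 38, 24, 30, 783 and 502 without VENins lines 1 to 5. Among the 9 genes, 1 (SESN1) was called without both lines numbered 4, where 1.97% of all tested genes were called, and without VENins line 4 alone, where 4.65% were. In the other fits with libraries left out, 0 of the 9 were called.

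**Figure D3:**
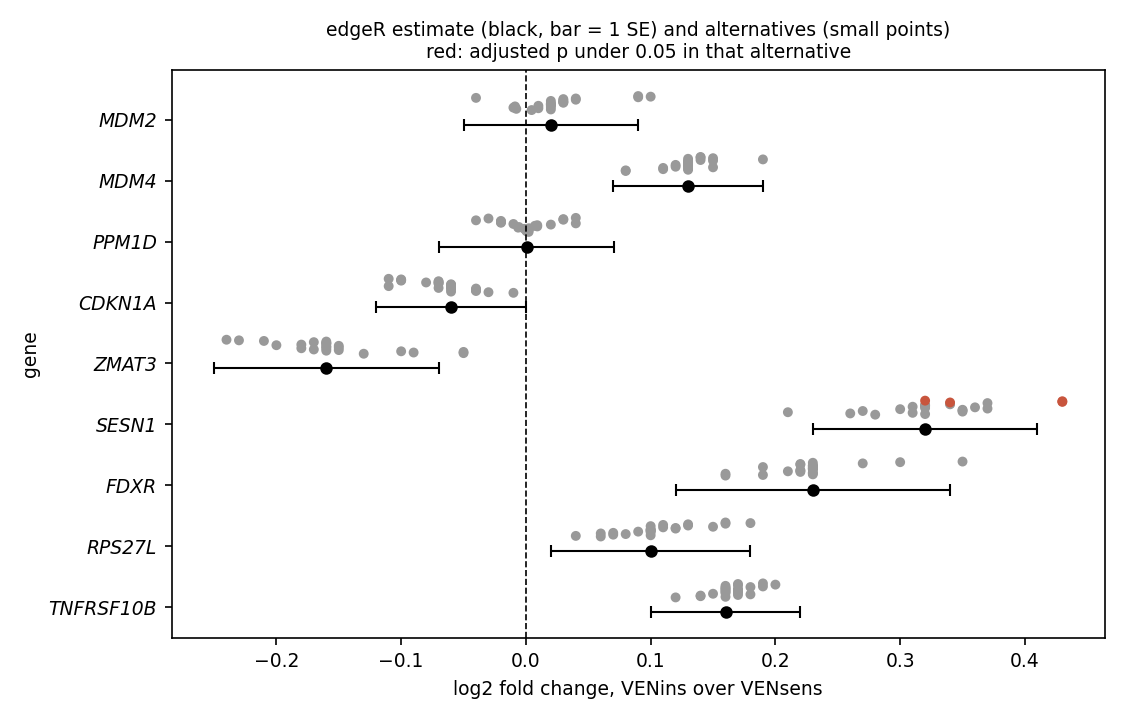
Log2 fold change of VENins over VENsens lines (horizontal axis) for each of the 9 genes (vertical axis): black points are edgeR estimates with 1 SE, small points are the alternative settings, red where the adjusted p is under 0.05. SESN1 has the 4 red points, between 0.32 and 0.43, and the MDM2 and PPM1D points lie on both sides of 0.

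The lines differed in which of the 9 genes stood out. Relative to the mean of each gene over the 10 lines, SESN1 was higher by 0.43 and 0.44 on the log2 scale in VENins lines 1 and 2 and stood at -0.26 in VENins line 4. ZMAT3 stood at -0.55 in VENins line 5 and at 0.33 in VENsens line 2. VENins line 2 was the highest of the 10 lines for 3 of the 9 genes, MDM4, SESN1 and TNFRSF10B. VENins line 4 was the highest for 2, MDM2 and RPS27L. VENins line 5 was the lowest for 2, MDM2 and ZMAT3, and the highest for 1, FDXR. VENsens line 2 was the lowest for 2, CDKN1A and FDXR, and the highest for 1, ZMAT3. VENsens line 5 was the lowest for 2, MDM4 and TNFRSF10B, and the highest for 1, PPM1D. VENsens line 1 was the lowest for 2, SESN1 and RPS27L, VENsens line 4 the lowest for 1, PPM1D, and VENsens line 3 the highest for 1, CDKN1A. Targets of p53 therefore stood on different sides of their means within a line: in VENins line 5, FDXR was at 0.25 while ZMAT3 was at -0.55, RPS27L at -0.19 and CDKN1A at -0.14.

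**Figure D4:**
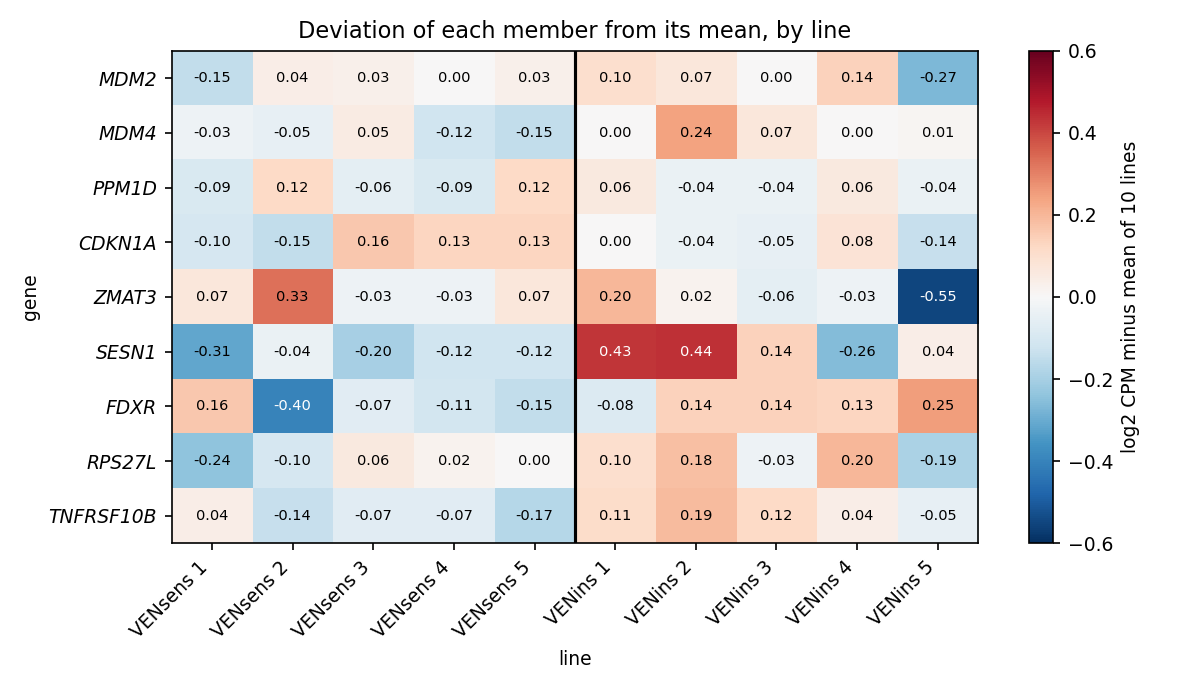
Deviation of log2 CPM from the mean over the 10 lines (colour and printed value, blue below and red above) for the 9 genes (vertical) in each VENsens and VENins line (horizontal). The deviations run from -0.55 (ZMAT3, VENins line 5) to 0.44 (SESN1, VENins line 2).

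The spread between lines of a group was also compared. The SD of log2 CPM was 0.10 among VENsens and 0.29 among VENins lines for SESN1, and 0.14 and 0.28 for ZMAT3. The value for ZMAT3 among VENins lines rests on line 5 and was 0.12 without it, and that among VENsens lines was 0.06 without line 2. For FDXR the SD was 0.20 and 0.12 (0.05 without VENins line 1), and for CDKN1A 0.15 and 0.08, so these were more even among VENins lines. The SD was larger among VENins lines for 6 of the 9 genes (66.7%) and for 62.2% of all tested genes. The median SD of the 9 was 0.110 in VENsens and 0.121 in VENins lines, against 0.116 and 0.139 over all tested genes. Over the 8345 tested genes within the range of mean CPM of the 9, the medians were 0.0855 and 0.105.

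Levels of different genes were compared as mean CPM per kb of exon length over the 10 lines. CDKN1A was the highest at 34.8 ± 2.82 CPM per kb (SD, n = 10), and its lowest line was above the highest line of SESN1, at 16.5 ± 3.19 CPM per kb. MDM4 at 13.5 ± 1.04, TNFRSF10B at 10.7 ± 0.883, MDM2 at 9.07 ± 0.729 and PPM1D at 7.36 ± 0.423 CPM per kb followed, each overlapping its neighbour in that order. ZMAT3 at 4.12 ± 0.601, RPS27L at 3.22 ± 0.320 and FDXR at 2.97 ± 0.393 CPM per kb were lower than PPM1D in every line, and each overlapped its neighbour. The length is the union of all annotated exons, which counts exons that are rarely used, 9.13 kb for RPS27L and 13.3 kb for MDM2, and this lowers the level per kb. By mean CPM, the 9 genes lay between the 41.5 percentile (FDXR) and the 91.3 percentile (MDM4) of the tested genes.

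The genes whose log2 CPM followed MDM2 and CDKN1A most closely over the 10 libraries were taken from 11927 tested protein-coding genes by Pearson correlation, as a description with no test. For MDM2 they were API5 (r = 0.967), DIS3 (0.933), PPP2R2A (0.933), GNAQ (0.931) and ERGIC2 (0.931). For CDKN1A they were BFAR (r = 0.937), PCYT1A (0.890), GLE1 (0.888), CFAP61 (0.876) and ACLY (0.871). CFAP61 averaged 0.531 CPM, so its r rests on few counts. These values of r describe the 10 libraries and were not tested.

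Closest relatives of the 9 genes were listed as paralogs, 10 of 12 of them tested. Of these, 0 passed the adjusted p in edgeR's quasi-likelihood test or in DESeq2, with or without the line number, 1 (CDKN1C) had an unadjusted p under 0.05 (16.2% of all tested genes), and their median log2 fold change was 0.04. The sestrins SESN2 and SESN3 averaged 90.0 ± 4.59 and 14.2 ± 3.37 CPM in VENsens lines and 85.4 ± 12.9 and 12.9 ± 2.11 CPM in VENins lines (SD, 5 lines per group). Their log2 fold changes were -0.09 and -0.13, and neither passed edgeR's quasi-likelihood test (adjusted p = 0.532 and 0.636). That of SESN2 was -0.03 without VENins line 1 and -0.17 without VENins line 5, and that of SESN3 was 0.0027 without VENsens line 2 and -0.29 without the lines numbered 1. Of the other TRAIL receptors, TNFRSF10A stood at 0 to 0.173 CPM in every line and was not tested. The decoy receptors TNFRSF10C and TNFRSF10D averaged 0.704 and 6.89 CPM in VENsens lines and 0.668 and 7.23 CPM in VENins lines. Among the inhibitors related to p21, CDKN1B averaged 209 ± 11.6 CPM over VENsens and 211 ± 7.11 CPM over VENins lines (SD, n = 5 in each group). ZMAT1, ZMAT2 and ZMAT5 had log2 fold changes of 0.10, -0.03 and 0.16. That of ZMAT1 was 0.05 without VENsens line 5. For ZMAT2 it was -0.0089 without the lines numbered 5, -0.05 without VENsens line 4 alone and -0.06 with the length trend removed. For ZMAT5 it was 0.08 without the lines numbered 3 and 0.25 without those numbered 2. ZMAT4 was at 0 in every library. RPS27 had a log2 fold change of 0.08, and 0.04 with the length trend removed.

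Beyond the 9 genes, 7 lists covered other regulators and targets of p53 and the partners of individual members. Together they hold 182 symbols, of which 162 were tested. In edgeR's quasi-likelihood test 0 of these were called higher and 2 lower, both from the list of other p53 targets, beside 0.197% of all tested genes called in either direction. At an unadjusted p under 0.05, 16 were higher and 23 lower, which is 24.1% of them, beside 16.2% of all tested genes. The log2 fold change was above 0 for 74 of the 162 (45.7%, beside 51.1% of all tested genes), with a median of -0.01, and the groups did not overlap for 19, beside 4.66% of all tested genes.

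**Figure D5:**
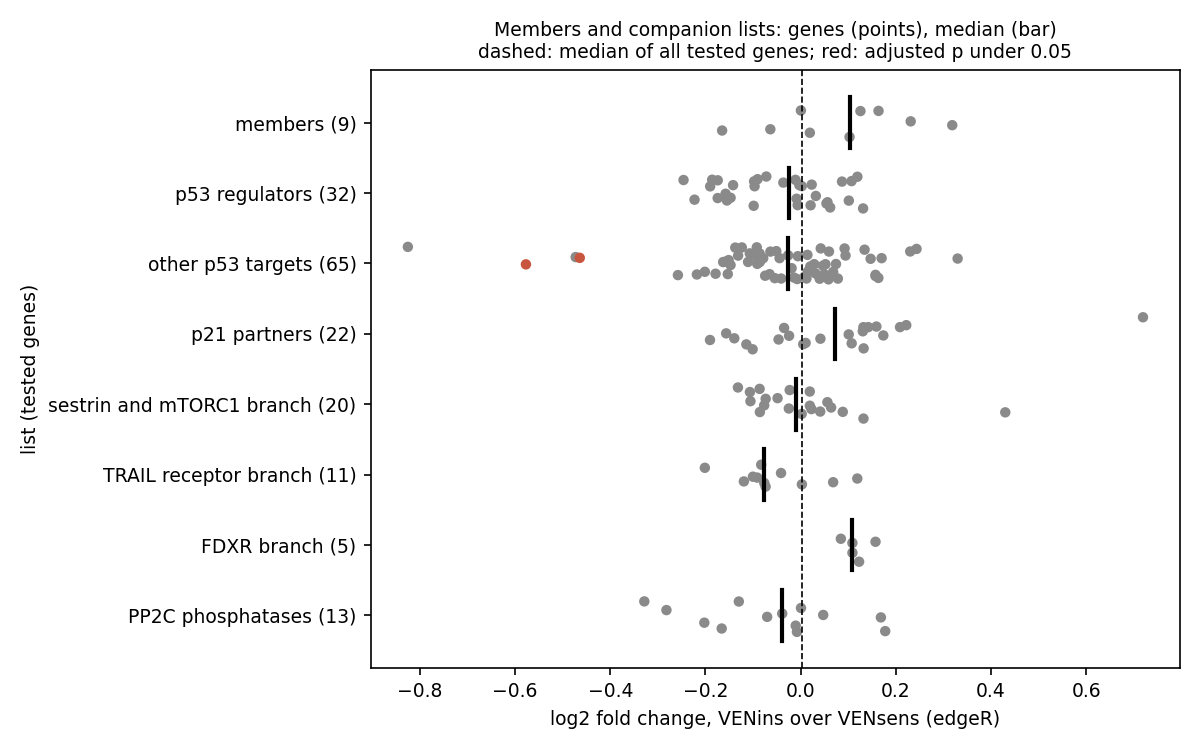
Log2 fold change of VENins over VENsens lines (horizontal axis) of each tested gene (points) in the 9 genes and the 7 lists (vertical axis, tested genes in brackets), with the median of each as a black bar, the median of all tested genes dashed, and genes with an adjusted p under 0.05 in red. The red points are BAX (-0.58) and PGPEP1 (-0.46), and the list medians run from -0.08 (TRAIL receptor branch) to 0.11 (FDXR branch).

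Other regulators of p53 (32 of 34 tested) include kinases, ubiquitin ligases, acetyltransferases and nucleolar proteins that act on p53 or MDM2. The edgeR quasi-likelihood test called 0 of the 32, with 1 higher and 8 lower at an unadjusted p under 0.05 (7.79% and 8.38% of all tested genes), while edgeR without the line number called 1 (0.889% of all tested genes), DESeq2 with it 1 (1.69%) and DESeq2 without it 4 (6.05%). Their median log2 fold change was -0.02, with 12 above 0, and the groups did not overlap for 6 (4.66% of all tested genes). CREBBP, an acetyltransferase of p53, stood at 143, 154, 132, 147 and 143 CPM in VENsens lines 1 to 5 and at 122, 120.5, 117, 126 and 129 CPM in VENins lines 1 to 5. Every VENins line was below every VENsens line. CREBBP, with a log2 fold change of -0.22 (SE 0.05), missed the threshold in edgeR's quasi-likelihood test (adjusted p = 0.0843), with adjusted p from 0.00206 to 0.484 over the alternatives. With the length trend removed, CREBBP was at -0.15 (adjusted p = 0.203 in edgeR's quasi-likelihood test). CREBBP passed in 7 of 24 alternatives. With all 10 libraries these were edgeR without the line number (0.0437), edgeR with no filter (0.0222), DESeq2 with the line number (0.0178) and DESeq2 without it (0.00206), and the others left out VENsens line 3 (0.0339), VENins line 4 (0.0198) or VENins line 5 (0.0179). PRKDC, a kinase of the DNA damage response, averaged 589 ± 15.2 CPM over VENsens and 523 ± 34.9 CPM over VENins lines (SD, n = 5 in each group), also without overlap. Its log2 fold change was -0.17 (SE 0.05, adjusted p = 0.14), and it passed in 2 of 24 alternatives, DESeq2 without the line number (0.0239) and edgeR without VENins line 4 (0.0204). With the length trend removed it was -0.10 (adjusted p = 0.403). SETD7, a methyltransferase of p53, had a log2 fold change of -0.25 (SE 0.07, adjusted p = 0.115) and passed in 4 of 24 alternatives: DESeq2 without the line number (0.0436), edgeR with no filter (0.0139), and edgeR without both lines numbered 4 (0.0449) or VENins line 4 alone (0.00801). SETD7 was at -0.17 with the length trend removed (adjusted p = 0.218 in edgeR's quasi-likelihood test). CDKN2A, which encodes the MDM2 inhibitor ARF, was at 0 in every library, and DAXX, at 0.0786 to 0.374 CPM, was not tested.

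Other p53 targets (65 of 74 tested) had -0.03 as their median log2 fold change, with 28 above 0. The edgeR quasi-likelihood test called 0 higher and 2 lower (0.197% of all tested genes in either direction), with 5 higher and 12 lower at an unadjusted p under 0.05 (7.79% and 8.38%), and the groups did not overlap for 9 (4.66%). DESeq2 called 3 with the line number (1.69% of all its tested genes) and 6 without it (6.05%), and edgeR without the line number called 3 (0.889%). BAX, which permeabilizes the mitochondrial membrane in cell death, stood at 38.6, 33.6, 44.0, 36.1 and 41.1 CPM in VENsens lines 1 to 5 and at 25.6, 28.7, 22.7, 25.1 and 27.5 CPM in VENins lines 1 to 5. Each VENins line was below each VENsens line. BAX fell by 0.58 on the log2 scale (SE 0.09, adjusted p = 0.0128 in edgeR's quasi-likelihood test) and passed in 23 of 24 alternatives, with adjusted p from 4.4e-11 to 0.0563. The exception was the fit without both lines numbered 5 (adjusted p = 0.0563).

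PGPEP1, a peptidase that removes pyroglutamate from peptides, was measured at 22.4, 28.2, 20.4, 22.2 and 22.5 CPM in VENsens lines 1 to 5 and at 15.4, 16.8, 18.2, 17.6 and 15.5 CPM in VENins lines 1 to 5. The groups did not overlap, and VENsens line 2 was the highest of the 10. PGPEP1 fell by 0.46 on the log2 scale (SE 0.08, adjusted p = 0.0407 in edgeR's quasi-likelihood test) and passed in 17 of 24 alternatives, with adjusted p from 1.48e-05 to 0.383. It missed the threshold without the lines numbered 1 (0.0612), 2 (0.383) or 5 (0.0982). Without the line number it missed it when VENsens line 4 (0.0644), VENsens line 5 (0.0662), VENins line 1 (0.0582) or VENins line 2 (0.0695) was left out.

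IER5, an immediate early gene and p53 target, stood at 54.7, 44.0, 48.2, 48.6 and 48.0 CPM in VENsens lines 1 to 5 and at 58.3, 62.5, 62.0, 52.1 and 72.1 CPM in VENins lines 1 to 5. VENins line 4, below VENsens line 1, was the only overlap. IER5, with a log2 fold change of 0.33 (SE 0.08), missed the threshold in edgeR's quasi-likelihood test (adjusted p = 0.0783), with adjusted p from 0.000402 to 0.484 over the alternatives. IER5 passed in 8 of 24 alternatives. With all 10 libraries it did so in edgeR without the line number (0.0488), in edgeR with no filter (0.000402), in DESeq2 with the line number (0.0135) and in DESeq2 without it (0.00389). With libraries left out it did so without the lines numbered 1 (0.0492) or 4 (0.0175), and without VENins line 4 (0.00409) or VENins line 5 (0.0366) alone. The number of other p53 targets called was 1 without the lines numbered 2 (0.0358% of all tested genes), 6 without those numbered 4 (1.97%) and 0 without those numbered 5 (0.0536%). Without the line number it was 1 when VENsens line 4, VENsens line 5, VENins line 1 or VENins line 2 was left out (0.106% to 0.225%). In such fits it was 6 without VENins line 4 (4.65%) and 7 without VENins line 5 (2.97%). The count did not always follow the share over all tested genes. It was larger at 2.97% than at 4.65%, and it was 0 at 0.0536% but 1 at 0.0358%. Of the targets not tested, KITLG and LIF were at 0 in every library, and GDF15, SFN, SPATA18, CMBL and EPHA2 did not exceed 0.211 CPM.

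The genes listed around p21 (22 of 24 tested) are cyclins, kinases, pocket proteins and other partners, with further kinase inhibitors such as CDKN1C and CDKN2D. Their median log2 fold change was 0.07, with 14 above 0. edgeR called 0 of them, as did DESeq2 with and without the line number, and 7 were higher and 1 lower at an unadjusted p under 0.05 in edgeR, beside 7.79% and 8.38% of all tested genes. CCNB1, the mitotic cyclin B1, averaged 124 ± 14.9 CPM over VENsens and 144 ± 9.38 CPM over VENins lines (SD, n = 5 in each group), a log2 fold change of 0.22 (SE 0.07). Its adjusted p was 0.136 in edgeR's quasi-likelihood test and under 0.05 in 1 of 24 alternatives, with no filter (0.0202), and 4 of 5 VENins lines were above every VENsens line. CDKN1C, the p57 inhibitor, stood at 2.91, 3.44, 2.18, 2.56 and 1.72 CPM in VENsens lines 1 to 5 and at 2.44, 4.45, 6.96, 2.36 and 5.53 CPM in VENins lines 1 to 5. VENins lines 2, 3 and 5 were above every VENsens line, and the values rest on 43 to 171 counts. For CDKN1C the log2 fold change was 0.72 (SE 0.25, adjusted p = 0.182 in edgeR's quasi-likelihood test), and it passed in 2 of 24 alternatives, with no filter (5.21e-05) and without VENins line 4 (0.0291). It was 0.44 without the lines numbered 3, the lowest of the alternatives, and 0.94 without VENins line 4. CDKN2D, an inhibitor of CDK4 and CDK6, had a log2 fold change of 0.21 (SE 0.07, adjusted p = 0.182) and also passed without VENins line 4 (0.0184), 1 of 24 alternatives.

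Around sestrin 1, the mTORC1 branch (20 of 20 tested) had -0.01 as its median log2 fold change, with 10 above 0 and a range from -0.13 to 0.43. The edgeR quasi-likelihood test and DESeq2, with and without the line number, called 0 of the 20, and 1 (SEC13, higher) had an unadjusted p under 0.05 in edgeR, beside 16.2% of all tested genes. SEC13, a subunit of the GATOR2 complex to which sestrins bind, averaged 69.7 ± 2.43 CPM over VENsens and 76.4 ± 3.22 CPM over VENins lines (SD, n = 5 in each group). Its log2 fold change was 0.13 (SE 0.06, adjusted p = 0.276). WDR59, also of GATOR2, and CASTOR1, an arginine sensor, had log2 fold changes of -0.11 and 0.43, the latter at under 1 CPM on average in both groups. WDR59 was at -0.05 with the length trend removed and at -0.07 without the lines numbered 1. CASTOR1 moved to 0.18 without the lines numbered 3, to 0.26 without those numbered 5, to 0.19 without VENsens line 3 or VENsens line 5 alone, and to 0.82 without VENsens line 4 alone or both lines numbered 4.

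The TRAIL receptor branch (11 of 13 tested) had -0.08 as its median log2 fold change, with 3 above 0. The edgeR quasi-likelihood test and DESeq2, with and without the line number, called 0 of the 11, with 1 (BID, higher) at an unadjusted p under 0.05 in edgeR, beside 16.2% of all tested genes. BID, which carries the death receptor signal to mitochondria, stood at 127, 119, 128, 123 and 123 CPM in VENsens lines 1 to 5 and at 128, 137, 135, 129 and 143 CPM in VENins lines 1 to 5. The VENins lines were all above the VENsens lines, VENins line 1 by less than the printed digits show. For BID the log2 fold change was 0.12 (SE 0.05, adjusted p = 0.294 in edgeR's quasi-likelihood test). CFLAR, which blocks caspase 8, and TNFRSF1A, a receptor for TNF, had log2 fold changes of -0.12 and -0.10. CFLAR was at -0.04 with the length trend removed (adjusted p = 0.836) and at -0.08 without VENsens line 2, and TNFRSF1A was at -0.06 without VENins line 1.

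The mitochondrial partners of FDXR (5 of 9 tested) had 0.11 as their median log2 fold change, with 5 above 0, where 51.1% of all tested genes were. The edgeR quasi-likelihood test and DESeq2, with and without the line number, called 0 of the 5, and 1 (ISCU) had an unadjusted p under 0.05 in edgeR, beside 16.2% of all tested genes. ISCU, the scaffold on which iron-sulfur clusters are built, stood at 37.4, 35.4, 36.7, 36.4 and 37.9 CPM in VENsens lines 1 to 5 and at 39.1, 44.5, 40.7, 39.8 and 41.0 CPM in VENins lines 1 to 5. The groups did not overlap. For ISCU the log2 fold change was 0.16 (SE 0.06, adjusted p = 0.23 in edgeR's quasi-likelihood test). FDX1, a ferredoxin that receives electrons from FDXR, had a log2 fold change of 0.11. The steroid enzymes CYP11A1 and CYP24A1, which depend on FDXR, were at 0 in every library, and CYP27A1 and the ferredoxin FDX2 did not exceed 0.275 CPM.

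The PP2C phosphatases related to PPM1D (13 of 15 tested) had -0.04 as their median log2 fold change, with 4 above 0. By edgeR 0 of the 13 were called (0.197% of all tested genes), by edgeR without the line number 1 (0.889%), by DESeq2 with it 1 (1.69%) and by DESeq2 without it 2 (6.05%). At an unadjusted p under 0.05 in edgeR, 1 was higher and 3 were lower, beside 7.79% and 8.38% of all tested genes. PPM1K, a mitochondrial phosphatase of branched-chain amino acid breakdown, stood at 136, 160.2, 147, 144 and 148 CPM in VENsens lines 1 to 5 and at 122, 117, 115, 130.3 and 102 CPM in VENins lines 1 to 5. Every VENins line was below every VENsens line, with VENins line 5 the lowest. PPM1K, with a log2 fold change of -0.33 (SE 0.06), missed the threshold in edgeR's quasi-likelihood test (adjusted p = 0.0552), with adjusted p from 3.78e-05 to 0.429 over the alternatives. With the length trend removed, PPM1K was at -0.26 (adjusted p = 0.0756 in edgeR's quasi-likelihood test). PPM1K passed in 12 of 24 alternatives. All 10 libraries were used in 5 of these, edgeR without the line number (0.0264), with library size alone (0.0454) and with no filter (3.78e-05), and DESeq2 both without the line number (0.000337) and with that term kept (0.00158). The other 7 left libraries out: PPM1K passed without the lines numbered 1 (0.0329) or 4 (0.0086). Without the line number it passed when VENsens line 1 (0.0319), VENsens line 3 (0.0388), VENins line 1 (0.043), VENins line 4 (0.00203) or VENins line 5 (0.0142) was left out. PDP2, a phosphatase of pyruvate dehydrogenase, had a log2 fold change of -0.28 (SE 0.09, adjusted p = 0.153) and passed in 3 of 24 alternatives, DESeq2 without the line number (0.0364), edgeR with no filter (0.0299) and edgeR without VENins line 4 (0.0461). Its fold change was -0.18 without the lines numbered 2 and -0.23 with the length trend removed. PPM1F had a log2 fold change of -0.20 (SE 0.07, adjusted p = 0.173) and passed in 2 of 24 alternatives, without both lines numbered 4 (0.0469) and without VENins line 4 alone (0.0143). PPM1F was at -0.14 with the length trend removed.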

How the data were processed

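RNA of 10 RS4;11 lines, 5 VENsens and 5 VENins with 1 library each, was sequenced. The authors deposited raw counts per Ensembl gene identifier, made by the submitters with bcl2fastq 2.20.0.422, Bowtie2 2.3.5.1, SAMtools 1.9 and HTSeq 0.9.1 on the genome build hg19 (GRCh37). The 5 summary lines of each table, which hold 45.8% to 47.3% of the reads, were left out. Reads counted on genes numbered 20631907 to 28323643 per library. GENCODE 29 named 52526 of the 63677 identifiers by identifier. Since GENCODE 29 is on another build, it gave names, exon lengths and overlaps, and no coordinate was applied to the counts.

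The tools were edgeR 4.0.16, DESeq2 1.42.0 and limma 3.58.1 under R 4.3.3, and matplotlib 3.10.9, pandas 2.3.3 and numpy 2.4.6 under Python 3.11.15. Genes passed edgeR's filterByExpr (minimum count 10, minimum total 15), were scaled by TMM and went into edgeR's quasi-likelihood F test, whose model held line number and condition. p-values were adjusted by Benjamini and Hochberg with a threshold of 0.05. The F statistic gave the SEs. Log2 CPM for correlations, deviations and principal components used a prior count of 2. The steps were tested on simulated data. Lines of a group differed by more than counting noise, with chi-square over degrees of freedom of 1.93 to 14.3 over 20 pairs of lines.

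Alternatives were no line number, DESeq2 with and without it, RLE size factors, library size alone, no filter, at least 10 counts in every library, the length trend removed by a spline with 4 degrees of freedom per library, RPS27 counts added to RPS27L, and each line number left out. Each library left out by itself was added after the data had been seen. The members and lists were chosen with earlier results of these data known. Named from each of the 7 lists were the genes with an adjusted p under 0.05 and the 3 with the smallest p, with all paralogs and the 5 genes most correlated with MDM2 and with CDKN1A. PAX5 and the untested genes were named after their values were seen. 2 listed genes count in the totals of their lists and are not reported here by themselves. Of the list symbols, DUSP14 was not matched. Upstream sequences came from RefSeq on GRCh38.p14, 250 bases before each start. p53's own transcript was not analysed here.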

Additional observations from a re-analysis of the deposited data

Results flagged for a closer look

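In each group of 5 lines, the highest and the lowest value of each of the 9 genes were compared with the nearest other line. A line is listed where its gap to the nearest line, divided by the range of the group, exceeded Dixon's critical value of 0.71. This happened in 3 of 18 groups of values, and chance gives it in about 1 of 20 groups (0.9 expected among 18). MDM2 in VENsens line 1 stood at 109 CPM, below the nearest VENsens line at 120.1 CPM, with a ratio of 0.777. MDM4 in VENins line 2 stood at 174 CPM, above the nearest VENins line at 155 CPM, with a ratio of 0.712. ZMAT3 in VENsens line 2 stood at 49.3 CPM, above the nearest VENsens line at 41.4 CPM, with a ratio of 0.737.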

How the results depend on the processing

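Of 208 fold changes of the 9 genes under 24 alternatives, 1 of which (RPS27 counts added) was counted for RPS27L alone, 190 kept their direction and their side of the threshold, 4 (all SESN1) came past it, 0 were lost and 14 turned in sign, all of MDM2 or PPM1D, whose fold changes are near 0. MDM2 turned without replicate 1 (-0.04) or 4 (-0.01), in a range of -0.04 to 0.10 with 1 line number left out, without VENsens line 1 (-0.0077) and without VENins line 4 (-0.0087). PPM1D turned with no replicate block (-0.0013), with library size alone (-0.0056), without replicate 1 (-0.03), 3 (-0.0062) or 4 (-0.04), in a range of -0.04 to 0.04, without VENsens line 1, 3 or 4 (-0.02 each), without VENins line 1 (-0.01) and without VENins line 4 (-0.02). Genes called numbered 33, and 149 with no replicate block, 217 in DESeq2 with the block, 739 in DESeq2 without it, 664 with no filter on low counts, 6 to 331 with 1 line number left out, and 18 to 783 with 1 library left out and no block (among them 21 without VENsens line 5, 178 without VENsens line 3 and 502 without VENins line 5). Of the 9 genes, 0 were called in edgeR, and 1 (SESN1) in DESeq2 without the block, with no filter, without replicate 4 and without VENins line 4, a range of 0 to 1 with libraries left out. At an unadjusted p under 0.05 in edgeR, 4 of the 9 passed, and 1 to 5 with libraries left out. Of the other p53 targets 2 were called, and 6 in DESeq2 without the block, 7 with no filter, 0 to 6 with 1 line number left out and 1 to 7 with 1 library left out. The fits with 1 library left out were chosen after seeing the data. The line numbers of the block may pair lines by number alone: the correlation of a VENsens line with the VENins line of its number, after the group means were removed, was -0.103 to 0.028, and 0 of 5 VENsens lines correlated best with its own number. The cause was not tested for any of these shifts. FDXR, at 166 to 296 counts per library, is the least precisely counted of the 9.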
